A study of Solanum lycopersicum with 24 samples.

Results

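The genes described here are those of the tomato (*Solanum lycopersicum*) array whose symbols name plastid-encoded genes of transcription, translation and upkeep. They were taken by symbol from the table that pairs the platform's probe sets with genes: *rpoA*, *rpoB*, *rpoC1* or *rpoC2*, *rps*, *rpl* or *ycf* with a number, or *matK*, *clpP*, *accD*, *cemA*, *ccsA* or *infA*. A total of 39 probe sets of 67795 had such a symbol, and they stood for 27 genes of the 65927 features left once probe sets of 1 symbol were averaged. No probe set had the symbol *accD*, *cemA* or *ccsA*, and these genes were not analysed here. The 27 genes were 4 RNA polymerase subunits, 9 proteins of the small and 8 of the large ribosomal subunit, 3 *ycf* genes, and *matK*, *clpP* and *infA*.

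RNA came from roots and from leaflets of the first fully expanded leaf of the *res* mutant and of its background genotype, cv. Moneymaker (WT). Plants were grown in hydroponics and were 6 weeks old when the control tissue was taken, and salt-stressed tissue was taken after 5 days in 200 mM NaCl. The 8 combinations of genotype, organ and condition had 3 Tomato Gene 1.1 ST arrays each, and each array carried RNA pooled from 3 plants, so that p-values measure the spread between pools. Control tissue was harvested before salt was applied, so a difference between salt and control also holds 5 days of growth. The *res* mutant is a chlorotic line, and no other allele was compared.

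Plastids keep a small genome of their own, which is transcribed by a bacterial-type RNA polymerase with plastid-encoded core subunits (the *rpo* genes) and by a phage-type polymerase encoded in the nucleus. Ribosomal proteins of the *rps* and *rpl* genes build the plastid ribosome together with nuclear-encoded ones, *matK* encodes a maturase for splicing of plastid introns, *clpP* a protease subunit, and *ycf1* and *ycf2* large proteins of protein import at the plastid envelope. In leaves most plastids are chloroplasts, whereas roots hold colourless plastids with far fewer plastid transcripts. In bulk tissue, fewer plastids or genome copies and less RNA per plastid cannot be told apart.

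The label of the group held for most probe sets and not for all. In the order of the platform's probe sets, 36 of the 39 (25 of the 27 genes) lay in 1 block of 83 probe sets, of which 82 had a symbol and in which symbols followed the gene order of RefSeq's tomato plastid genome. The other 3 lay among nuclear genes. The probe set of *rpl38*, which names a protein of the cytosolic ribosome, had 20 named neighbours, all of chromosome 5, where RefSeq also places *rpl38*. The first probe set of *rps16* had 20 neighbours of chromosome 7, and RefSeq has an *rps16* there as well as in the plastid. The probe set of *infA*, a translation initiation factor whose symbol RefSeq lists only in the plastid, had 20 neighbours of chromosome 12. These 3 are called nuclear-placed below and are given apart from the others. In the block, RefSeq lists the symbols *rpl16*, *rps3*, *rps19*, *rpl2*, *rps14*, *rps4* and *rps12* in the mitochondrion as well as in the plastid. They are counted with the plastid by their place in the block, and which genome their values come from was not tested.

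A symbol in the block did not always stand for 1 gene. Of the 25 genes, 18 had 1 probe set, and *rpl23*, *rps7*, *ycf1*, *ycf2*, *rps16*, *rpoB* and *clpP* had several in all. Of 12 runs of probe sets with more than 1 per symbol, 9 were followed in RefSeq's order by exactly as many genes that the table does not list before the next listed one, whereas 37 of 39 runs without extra probe sets were followed by none. The later probe sets of a run may therefore belong to a neighbouring gene, and they are given by number only. Some probe sets had the same values on all 24 arrays: *rpl2* and *ycf2* probe set 3, *rpl23* probe sets 1 and 2 and *ycf2* probe sets 2 and 1, and *rps7* and *ycf1* (probe set 1 of the former, 2 of the latter). *ycf1* probe set 3 had the values of *ndhB*, a subunit of the plastid NDH complex. The 39 probe sets thus held 35 different profiles. Each probe set of *ycf2* shares its values with a probe set of another member, as does 1 of the 3 probe sets of *ycf1*. Which of the 2 symbols such a profile belongs to was not tested.

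The deposited values were log2 intensities after robust multi-array average (RMA), with a median of 1.88 to 2.11 per group over all probe sets. The 36 probe sets in the block were among the brightest of the arrays. Their median was 9.74 in WT control roots, 10.39 in those of *res*, and 9.76 and 10.41 in roots under salt, 11.1 and 11.57 in control leaves and 11.1 and 11.52 in leaves under salt (WT before *res*), close to the top of the arrays at 12.47 to 12.64. Their median SD over the arrays of a group was 0.05, against 0.13 for all probe sets. Near the top of the scale an array may compress differences, and no value here measured that. The log2 of the summed intensity of the 3 leaf markers found of 16 was 3.49 to 6.86 on root arrays and 10.82 to 11.68 on leaf arrays, and that of the 4 root markers found of 11 was 11.1 to 12.44 and 5.48 to 6.56, so that both sums separated the organs. Single markers did not all do so: the leaf marker *GLK2* was at 1.69 in salt-stressed WT leaves and 1.72 in WT control roots, and the root marker *FRO1* was at 6.21 in leaves and 5.37 in roots of salt-stressed WT and at 5.50 and 4.77 in control *res*. Replicate 1 of the WT control leaves (2494 probe sets over 2-fold from the mean of the others) and replicate 3 of the salt-stressed WT roots (1399) stood apart from the other arrays, none of the 39 probe sets was over 2-fold off on any array, and the block's median differed by 0.12 and -0.14 on these arrays.

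**Figure D1:**
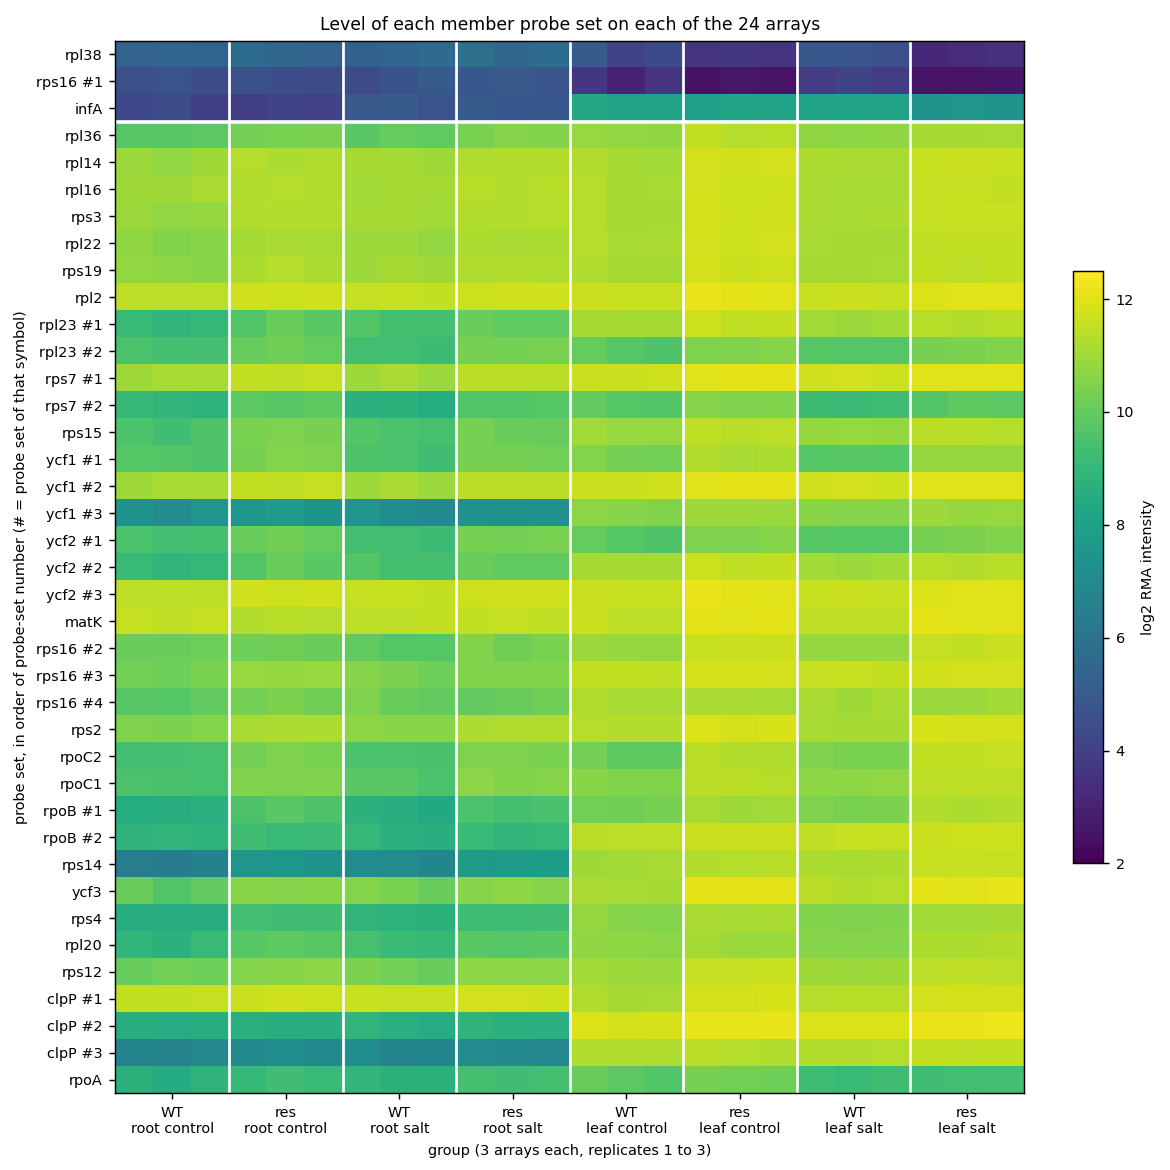
Level of the 39 probe sets (rows, in order of probe-set number, # for the probe set's number within its symbol) on the 24 arrays (columns, 3 per group), as log2 RMA intensity in colour. The white horizontal line separates the 3 nuclear-placed probe sets from the 36 of the plastid block, whose group medians were 9.74 to 10.41 in roots and 11.1 to 11.57 in leaves.

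In control roots, plastid-encoded genes were higher in *res* than in WT. At an adjusted p under 0.05 (limma, Benjamini-Hochberg over all 65927 features), 22 of the 27 genes were higher and 0 lower, where 7.47% of all features were higher. The median difference was 0.52 on the log2 scale, against -0.01 over all features. At the study's threshold for DEGs, which also asks for a 2-fold change, 1 gene was up-regulated (2.89% of all features were), and this was *rps14*. The 5 that did not pass were *clpP*, *matK*, *rpl16* and the nuclear-placed *infA* and *rpl38*.

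The 3 genes of the *rpoB* operon, which encode the beta subunits of the plastid polymerase, were among those with the largest differences. *rpoC2* was at 9.38, 9.35 and 9.43 on the 3 arrays of WT control roots and at 10.31, 10.45 and 10.38 on those of *res*. *rpoC1* was at 9.58, 9.47 and 9.45 in WT and at 10.5, 10.46 and 10.51 in *res*. *rpoB* probe set 1 was at 8.52, 8.54 and 8.66 in WT and at 9.55, 9.83 and 9.58 in *res*. For each of the 3, every *res* array was above every WT array. The log2 differences were 0.99 ± 0.08 (SE, n = 3 arrays per group) for *rpoC2* (limma adjusted p = 9.84e-07), 0.99 ± 0.10 for *rpoC1* (7.29e-06) and 1.08 ± 0.11 for *rpoB* probe set 1 (1.42e-05). *rpoB* probe set 2, with 8.82, 8.87 and 8.79 in WT and 9.26, 9.12 and 9.14 in *res*, differed by 0.34 ± 0.11 and did not pass (0.0518). *rpoA*, the alpha subunit, which lies in another part of the plastid genome, was at 8.74, 8.45 and 8.81 in WT and at 9.03, 9.3 and 9.13 in *res*, a difference of 0.49 ± 0.11 (0.0103) with no overlap of arrays.

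Of the ribosomal protein genes, *rps14*, *rps15* and *rpl20* differed most in control roots. *rps14* was at 6.4, 6.37 and 6.62 in WT and at 7.47, 7.55 and 7.39 in *res*, and *rps15* at 9.52, 9.28 and 9.59 against 10.38, 10.48 and 10.34. All *res* arrays were above all WT arrays for both. The differences were 1.01 ± 0.10 for *rps14* (adjusted p = 1.09e-05), 0.94 ± 0.11 for *rps15* (4.59e-05) and 0.89 ± 0.11 for *rpl20* (8.88e-05). The call of *rps14* at 2-fold lay at the threshold: its difference was 0.97 without *res* replicate 2, 0.98 without WT replicate 1 and 0.96 without WT replicate 2. The differences of *rps4* (0.77 ± 0.08) and *rps2* (0.70 ± 0.08) also passed. *rpl36*, *rpl14*, *rpl16*, *rps3*, *rpl22*, *rps19* and *rpl2*, which follow each other in the plastid genome, differed by 0.23 to 0.57, and 6 of these 7 passed.

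*matK* did not follow the other plastid genes in roots. It was at 11.56, 11.5 and 11.56 in WT control roots and at 11.31, 11.38 and 11.34 in *res*, so that the *res* arrays were below the WT arrays by 0.20 (SE 0.08), which did not pass (adjusted p = 0.116). The probe sets of *clpP* differed by 0.17, 0.11 and 0.24, and none passed. The 3 probe sets of *rps16* in the block differed by 0.04, 0.59 and 0.50, of which the last pair passed (0.00113 and 0.0162). The nuclear-placed *rpl38*, *rps16* probe set 1 and *infA* differed by 0.15, -0.08 and -0.19, none of which passed.

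In salt-stressed roots fewer genes passed. There, 15 of the 27 were higher in *res* at an adjusted p under 0.05 and 0 lower (4.65% of all features were higher), with a median of 0.44 against -0.01 over all features. None passed the 2-fold threshold, which 2.14% of all features did in either direction, and the test without moderation also gave 0. At an unadjusted p under 0.05 there were 22. No share of all features is given for this count, and it is not read as a result about the members. Of the gene averages, *rpoC2* and *rpoC1* had the largest differences. *rpoC2* was at 9.54, 9.51 and 9.5 in WT and at 10.47, 10.46 and 10.37 in *res* (0.91 ± 0.08, adjusted p = 1.11e-05), and *rpoC1* at 9.83, 9.81 and 9.52 against 10.66, 10.52 and 10.6 (0.88 ± 0.10, 8.09e-05). *rpoB* probe set 1 differed by 0.90 ± 0.11 (0.000241). *rps14* differed by 0.80 ± 0.10 (0.000267) and *rpoA* by 0.54 ± 0.11 (0.0101).

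Among single probe sets, 3 passed the 2-fold threshold in salt-stressed roots when each probe set was a feature, a setting chosen after the data were seen: *rpl23* probe set 2, with which *ycf2* probe set 1 is identical, and *rps7* probe set 2. Of all 67795 probe sets, 1.18% were higher at this threshold. *rpl23* probe set 2 was at 9.32, 9.33 and 9.19 in WT and at 10.33, 10.29 and 10.38 in *res* (1.05 ± 0.09, adjusted p = 1.01e-05). *rps7* probe set 2 was at 8.72, 8.73 and 8.5 in WT and at 9.64, 9.65 and 9.73 in *res* (1.03 ± 0.09, 1.58e-05). The arrays of both did not overlap between genotypes. The 7 neighbours from *rpl36* to *rpl2* differed by 0.16 to 0.59, and of them *rpl36* passed (0.59 ± 0.09, 0.00111). *matK* differed by 0.05 ± 0.08 and *ycf3*, which encodes an assembly factor of photosystem I, by 0.30 ± 0.13, and neither passed.

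**Figure D2:**
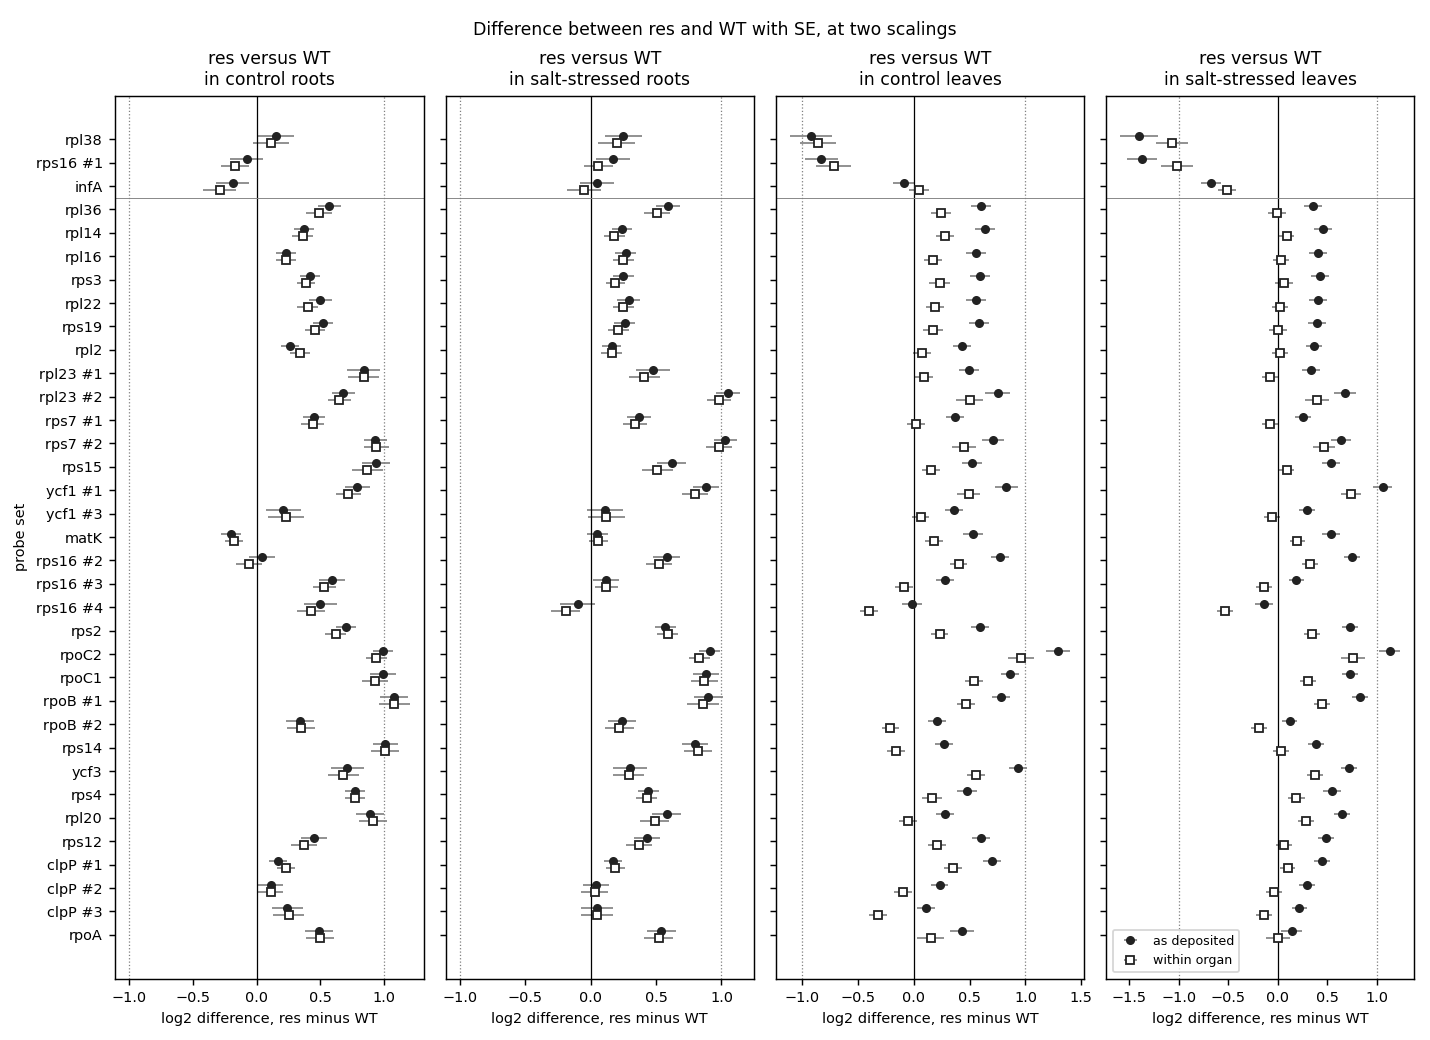
Log2 difference between *res* and WT with its SE for each of the 35 different probe set profiles, with 1 panel per organ and condition (4 panels, 3 arrays per group, each panel with its own horizontal scale). Filled circles are the values as deposited and open squares those with quantile normalization within the organ, and dotted lines mark a 2-fold change. The 2 scalings lie close together in roots, and in leaves most squares lie nearer to 0 than the circles.

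In leaves, almost all plastid-encoded genes were higher in *res* as deposited, but for most of them this depended on the scaling of the arrays. In control leaves 24 of the 27 genes were higher (5.25% of all features) and 1 lower (15.2% of all features), with a median of 0.54 against -0.12 over all features. In salt-stressed leaves 23 were higher (4.27%) and 2 lower (14.7%), with a median of 0.46 against -0.11. With quantile normalization repeated within each organ, 5 were higher and 1 lower in control leaves (8.14% and 7.65% of all features, member median 0.18), and 5 higher and 3 lower in salt-stressed leaves (7.65% and 8.06%, member median 0.09), the median of all features being 0 in both. In roots the same step gave 21 genes higher in control and 15 under salt (22 and 15 as deposited), where 7.11% and 3.93% of all features were, with medians of 0.49 and 0.42.

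The deposited arrays themselves differed between genotypes at the level where these genes lie. The members of the block were at a median percentile of 99.82 in WT and 99.84 in *res* control leaves, and of 99.82 and 99.83 in salt-stressed leaves. The intensity at the percentile 99.8 was 11.04 in WT and 11.43 in *res* control leaves, and 10.98 and 11.43 in salt-stressed leaves. In roots it was 10.61 and 10.65 in control and 10.7 and 10.67 in salt, while the median percentile of the block was 99.57 in WT and 99.74 in *res* control roots and 99.56 and 99.73 in salt. At the percentile 99 the genotypes differed by -0.01 in control and -0.04 in salt-stressed leaves. What brought about the higher top of the *res* leaf arrays was not tested, and the plastid genes are themselves part of it.

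Of the 27 genes, 14 were higher in *res* in all 4 comparisons with WT as deposited (0.306% of all features), and *rpoC1* and *rpoC2* were so under both scalings (0.214%). In control leaves *rpoC2* was at 10.3, 9.9 and 9.9 in WT and at 11.43, 11.28 and 11.26 in *res*. In salt-stressed leaves it was at 10.45, 10.4 and 10.39 in WT and at 11.54, 11.54 and 11.56 in *res*. The genotypes were about a full log2 unit apart in both conditions, with no overlap. The differences were 1.29 ± 0.11 (adjusted p = 1.3e-05) and 1.13 ± 0.11 (2.49e-05), and *rpoC2* was the 1 gene up-regulated at 2-fold in control leaves (1.27% of all features) and again in salt-stressed leaves (1.13%). With normalization within the organ they were 0.96 and 0.76, past the adjusted p (0.000175 and 0.000845) but under 2-fold.

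*rpoC1* was at 10.62, 10.51 and 10.5 in WT and at 11.43, 11.41 and 11.36 in *res* control leaves, and at 10.72, 10.71 and 10.78 against 11.47, 11.45 and 11.47 under salt. It differed by 0.86 ± 0.08 (adjusted p = 2.47e-05) and 0.73 ± 0.08 (6.2e-05), and by 0.54 and 0.31 within the organ. Of the 35 probe set profiles, 15 were higher in all 4 comparisons as deposited (0.322% of all probe sets) and 6 under both scalings (0.232%). These 6 were *rpoC2*, *rpoC1*, *rpoB* probe set 1, *rpl23* probe set 2 (also listed as *ycf2* probe set 1), *rps7* probe set 2 and *ycf1* probe set 1. *rpoB* probe set 1 was at 10.27, 10.23 and 10.33 in WT and at 11.13, 10.98 and 11.05 in *res* control leaves, and differed by 0.78 ± 0.08 (6.65e-05) in control and 0.83 ± 0.08 (2.83e-05) in salt. *rpoB* probe set 2 differed by 0.21 and 0.12 and did not pass, and within the organ its values were -0.21 and -0.19, which did not pass either.

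**Figure D3:**
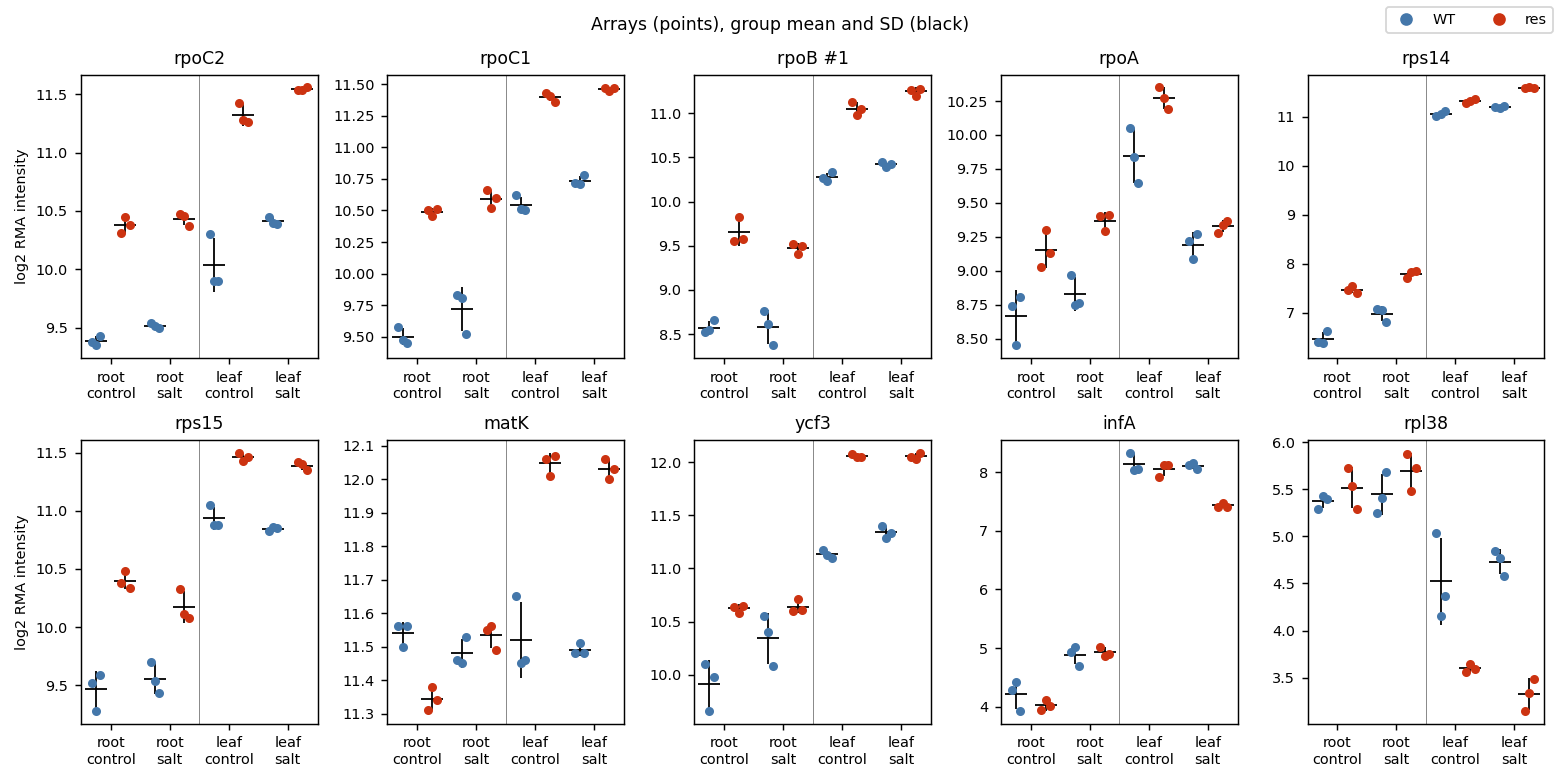
Log2 RMA intensity of 10 members on the single arrays (blue WT, red *res*), with the group mean and SD in black, for roots and leaves in control and salt. Each panel has its own vertical scale. The *res* arrays of *rpoC2*, *rpoC1* and *rpoB* probe set 1 lie above the WT arrays in all 4 pairs of groups, those of *matK* do so in leaves, and those of *rpl38* lie below the WT arrays in leaves.

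*ycf3* and *matK* were higher in *res* leaves. *ycf3* was at 11.17, 11.13 and 11.1 in WT and at 12.08, 12.05 and 12.05 in *res* control leaves (0.93 ± 0.08, adjusted p = 1.15e-05), and differed by 0.72 ± 0.08 (5.68e-05) under salt. Both values also passed within the organ, at 0.56 and 0.38. *matK* was at 11.65, 11.45 and 11.46 in WT and at 12.06, 12.01 and 12.07 in *res* control leaves (0.53 ± 0.09, 0.00123), and differed by 0.54 ± 0.09 under salt, but by 0.18 and 0.20 within the organ, which did not pass. The *res* arrays of both genes were above all WT arrays in the deposited values. The 7 neighbours from *rpl36* to *rpl2* differed by 0.43 to 0.64 in control and 0.36 to 0.46 in salt-stressed leaves as deposited, all passing, and by 0.07 to 0.28 and -0.01 to 0.09 within the organ, where 1 and 0 passed. *rps14*, at the head in roots, differed by 0.27 ± 0.08 and 0.39 ± 0.08 in leaves, and by -0.16 and 0.03 within the organ.

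*rps16* was listed by probe sets that went different ways, so its average says little. In control leaves the nuclear-placed probe set 1 was at 3.66, 3.06 and 3.57 in WT and at 2.52, 2.69 and 2.57 in *res* (-0.83 ± 0.15, adjusted p = 0.00194), whereas probe set 2 was at 10.94, 10.82 and 10.85 in WT and at 11.63, 11.64 and 11.65 in *res* (0.77 ± 0.08, 5.52e-05). Probe set 4 differed by -0.02 ± 0.09. Under salt the 3 differed by -1.37, 0.75 and -0.14. Within the organ, probe set 4 was lower in *res* by 0.40 and 0.53 (0.00503 and 0.000861).

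**Figure D4:**
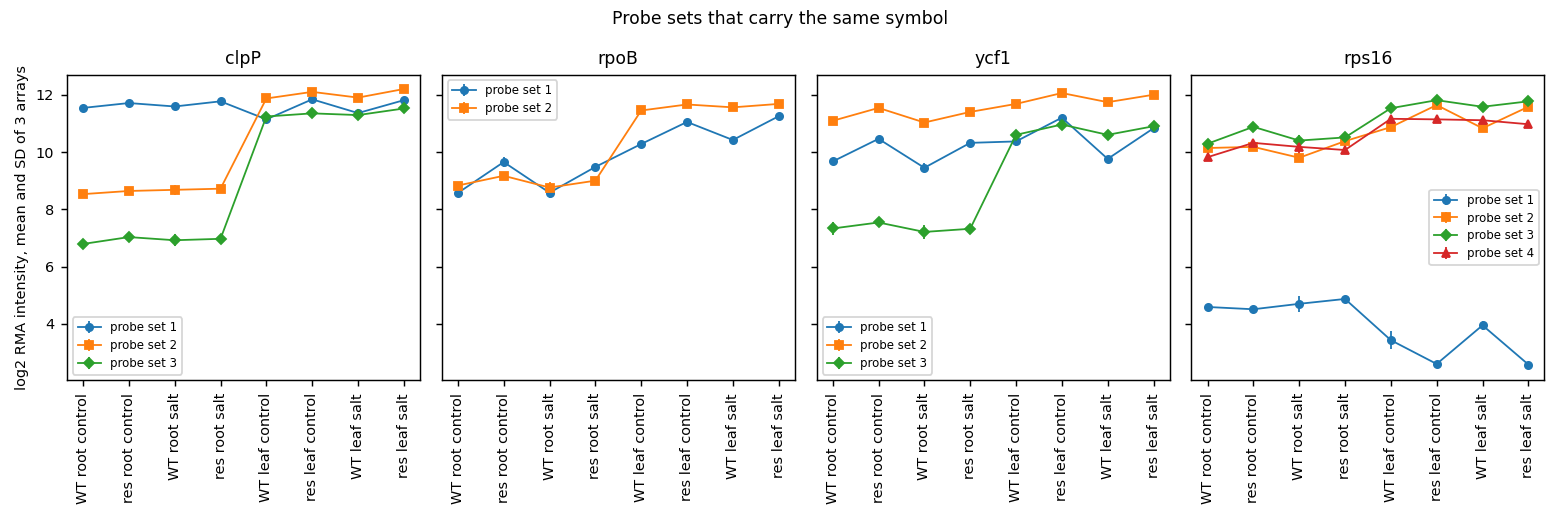
Group means of log2 RMA intensity with SD (3 arrays) for the probe sets that carry the symbols *clpP*, *rpoB*, *ycf1* and *rps16*, over the 8 groups. Probe sets 2 and 3 of *clpP* and probe set 3 of *ycf1* rise from roots to leaves by 3.34, 4.45 and 3.27 in WT control, *clpP* probe set 1 does not, and *rps16* probe set 1 lies far below the others.

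Of the nuclear-placed probe sets, *rpl38* and *rps16* probe set 1 were lower in *res* leaves in both conditions, and *infA* in salt-stressed leaves. Of all features, 15.2% were lower in control and 14.7% in salt-stressed leaves at an adjusted p under 0.05. *rpl38* was at 5.04, 4.16 and 4.37 in WT and at 3.56, 3.65 and 3.59 in *res* control leaves, and at 4.84, 4.77 and 4.58 against 3.15, 3.34 and 3.49 under salt. Every *res* array was below every WT array in both conditions. The 5.04 was on replicate 1 of the WT control leaves, which stood apart from the other arrays. The differences were -0.92 ± 0.19 (adjusted p = 0.00466) and -1.40 ± 0.19 (0.000226), and *rpl38* was the 1 member down-regulated at 2-fold in salt-stressed leaves, as were 3.19% of all features. *infA* was at 8.12, 8.15 and 8.05 in WT and at 7.41, 7.48 and 7.41 in *res* under salt (-0.67 ± 0.10, 0.000684), and differed by -0.09 ± 0.10 in control leaves, which did not pass (0.05 within the organ). These 3 probe sets kept their direction within the organ in salt-stressed leaves, with -1.07, -1.02 and -0.51.

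Counts of these genes past the thresholds were small for salt against control, with 0 at 2-fold. Set against the shares of all features below, they do not show that the members responded less than other features. In WT roots 3 of 27 were higher (4.51% of all features) and 0 lower: the nuclear-placed *infA* by 0.67 ± 0.13 (adjusted p = 0.00431), *rps14* by 0.52 ± 0.10 (0.00557) and *rps19* by 0.29 ± 0.08. In *res* roots 1 was higher (6.47%), again *infA*, by 0.91 ± 0.13 (0.000351), and 0 were lower. *infA* was at 4.29, 4.42 and 3.93 in control and at 4.94, 5.01 and 4.7 in salt-stressed WT roots, and at 3.94, 4.12 and 4.01 against 5.02, 4.86 and 4.9 in *res*, with no overlap in either genotype. At 2-fold, 0 members were called in any of the 4 comparisons of salt with control with or without moderation of the variances, where 2.68% of all features were in WT roots, 3.09% in *res* roots, 6.76% in WT leaves and 3.31% in *res* leaves. At an unadjusted p under 0.05 there were 10, 3, 7 and 8 members in that order. No share of all features is given for these counts, and they are not read as a result about the members.

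In leaves, *rpoA* was lower after salt in both genotypes. It was at 10.05, 9.84 and 9.65 in control and at 9.22, 9.09 and 9.27 in salt-stressed WT leaves, and at 10.35, 10.27 and 10.19 against 9.28, 9.34 and 9.37 in *res*. All salt arrays were below all control arrays of their genotype. The falls were -0.65 ± 0.11 (adjusted p = 0.000835) in WT and -0.94 ± 0.11 (0.000109) in *res*. In WT leaves 2 genes were lower (8.91% of all features), the other being *rps7* (-0.28 ± 0.08), and 1 was higher (11.5%), *rpoC2* (0.38 ± 0.11, 0.0314). In *res* leaves 4 were lower (4.44%), namely *rpoA*, *infA* (-0.62 ± 0.10), *rps7* (-0.37 ± 0.08) and *rpl36* (-0.31 ± 0.09, 0.0494), and 0 were higher. Within the organ, *rpl36* did not pass (-0.22, 0.155), and 2 genes were higher in *res* leaves (5.59% of all features), *rpl20* (0.31, 0.0254) and *rps14* (0.34, 0.0173). In WT leaves 2 were then higher (9.78%), *rpoC2* (0.49) and *rpoC1* (0.32, 0.0144).

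Within *rps7* the fall belonged to probe set 2. This probe set was at 9.97, 9.73 and 9.7 in control and at 9.18, 9.16 and 9.24 in salt-stressed WT leaves (-0.61 ± 0.10, adjusted p = 0.000704), and fell by 0.68 in *res* (0.000636), whereas probe set 1 differed by 0.05 and -0.06. *ycf1* probe set 1 was at 10.55, 10.29 and 10.28 in control and at 9.74, 9.81 and 9.74 in salt-stressed WT leaves (-0.61 ± 0.10, 0.000522), and fell by 0.37 in *res* (0.0269). The salt and control arrays did not overlap for either probe set. *ycf1* probe set 1 is the one whose control leaves were at 11.28, 11.12 and 11.19 in *res*, so that the difference between *res* and WT was 0.83 ± 0.10 in control and 1.06 ± 0.10 under salt.

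**Figure D5:**
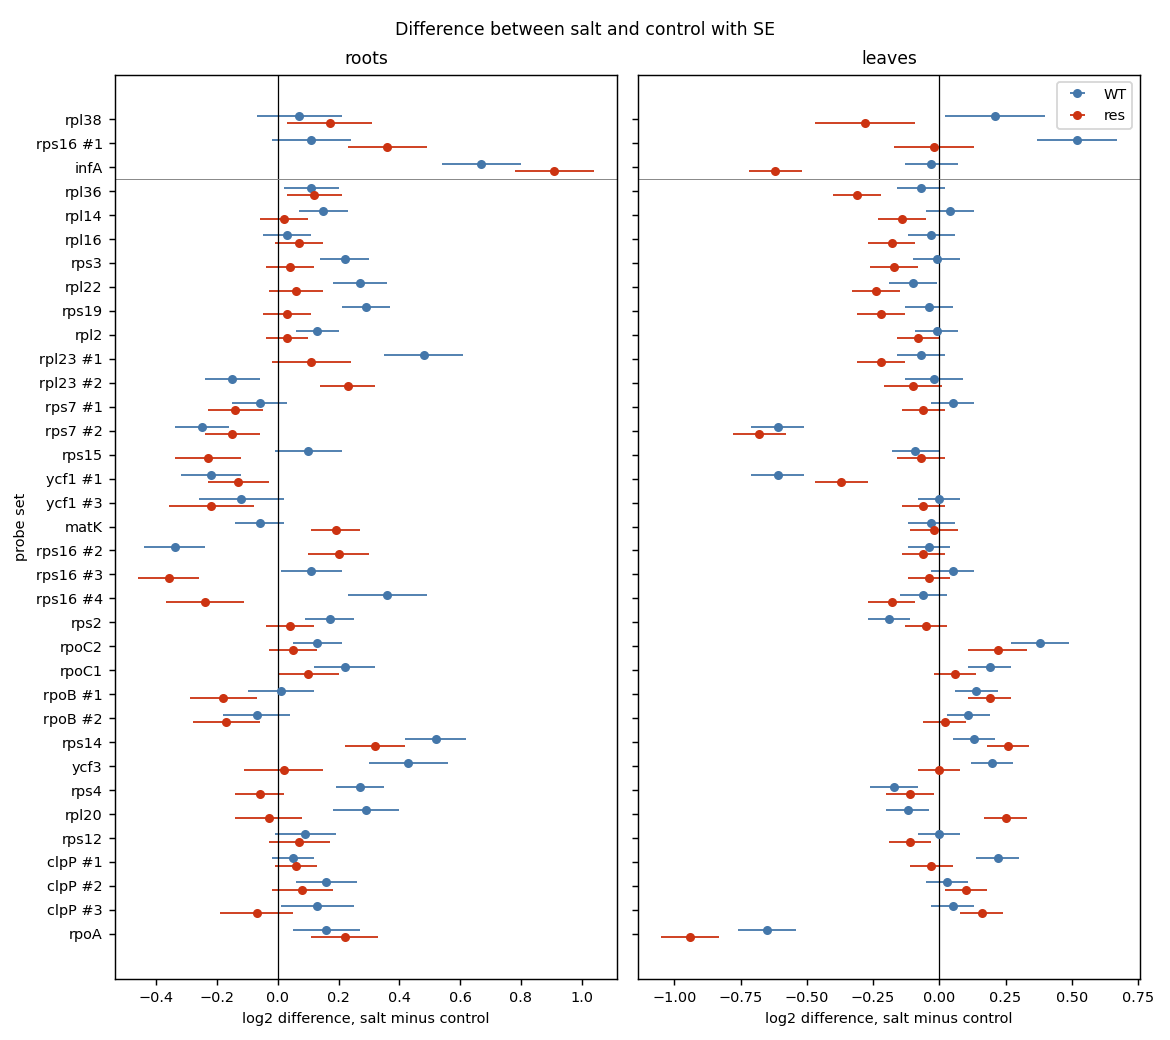
Log2 difference between salt and control with its SE for the 35 probe set profiles in roots and leaves (blue WT, red *res*, 3 arrays per group). Most values lie within 0.40 of 0. *infA* lies highest in roots, and *rpoA*, *rps7* probe set 2 and *ycf1* probe set 1 lie lowest in WT leaves.

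No member was called at 2-fold for the interaction of genotype and salt, which at the shares below does not set the members apart. In roots the interaction of genotype and salt passed for 0 of 27 genes, and at 2-fold 3.66% of all features were called. At an unadjusted p under 0.05 there were 4, again with no share of all features given and not read as a result about the members. In leaves it was lower for 1 gene at an adjusted p under 0.05 (4.02% of all features), *infA* (-0.58 ± 0.15, 0.0332), and for 0 at 2-fold (4.03%). The test without moderation also gave 0 at 2-fold in both organs. With each probe set as a feature, *rps16* probe set 2 had an interaction of 0.54 ± 0.14 in roots (0.0339), with 10.1, 10.12 and 10.2 in WT control and 9.94, 9.75 and 9.72 in WT salt, against 10.2, 10.22 and 10.12 and then 10.51, 10.24 and 10.38 in *res*. The *rpoA* difference between *res* and WT was 0.43 ± 0.11 in control and 0.14 ± 0.11 in salt-stressed leaves, with an interaction of -0.29 ± 0.15 that did not pass (0.394).

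Most plastid transcripts were brighter in leaves than in roots, by widely differing amounts. In WT control plants 13 of 27 genes were higher in leaves at 2-fold (5.61% of all features) and 0 lower, and the median difference was 0.86 against 0.05 over all features. These 13 counted the nuclear-placed *infA*. They also counted *clpP* by its average, which probe sets 2 and 3 raised while probe set 1 was lower in leaves. In *res* 12 were higher (5.59%) and 1 lower (11.7%), *rpl38* with -1.91 ± 0.17. *rps14* had the widest difference in WT, 4.60 ± 0.09 (24.2-fold), and in *res*, where it was 3.86 ± 0.09 (14.5-fold), the nuclear-placed *infA* was wider with 4.02 ± 0.12 (16.3-fold). *rps14* was at 11.01, 11.06 and 11.11 in WT control leaves against the 6.4, 6.37 and 6.62 given above for roots. Then came *clpP* probe set 3 (4.45), the nuclear-placed *infA* (3.93), *clpP* probe set 2 (3.34), *ycf1* probe set 3 (3.27, the values of *ndhB*), *rpoB* probe set 2 (2.63) and *rps4* (2.13) in WT. Lowest in WT were the nuclear-placed *rps16* probe set 1 (-1.16) and *rpl38* (-0.85). In the block, *clpP* probe set 1 was lowest, at 11.52, 11.55 and 11.56 in roots and 11.24, 11.09 and 11.11 in leaves of WT (-0.40 ± 0.07), and *matK* differed by -0.02 ± 0.07. The 7 neighbours from *rpl36* to *rpl2* were bright in both organs, with group means of 9.81 to 11.74 in roots and 10.75 to 12.06 in leaves, and differed by 0.13 to 1.01 in WT. Values of the organ comparison rest on the scaling of all 24 arrays together.

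Whether *res* differed from WT to another extent in leaves than in roots was tested with all 24 arrays. In control, the difference (*res* minus WT) was higher in leaves for 2 of 27 genes (5.6% of all features) and lower for 4 (11.2%) at an adjusted p under 0.05, and in salt for 1 (3.53%) and 4 (12.2%). *matK* was higher in leaves in both conditions, by 0.73 ± 0.10 (1.76e-05) and 0.49 ± 0.10 (0.00187). *rps14* was lower in leaves in control (-0.74 ± 0.12, 0.000132) and in salt (-0.41 ± 0.12, 0.0248), and within the organ by -1.16 and -0.79. At 2-fold, 1 gene was lower in leaves in control (4.86%) and 1 in salt (5.25%), the nuclear-placed *rpl38* in both. Within the organ, where the leaf values of the block's members drop, 12 genes were lower in leaves in control (7.31% of all features) and 10 in salt (6.91%), and *matK* was the 1 gene higher in control (8.33%; 0.36, adjusted p = 0.0126) and did not pass in salt (0.14).

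The list of plastid-encoded photosynthesis genes held 28 symbols, of which 27 lay in the block and *psaD* did not. Of the 27, 17 were higher in *res* in control roots (7.47% of all features) and 12 in salt-stressed roots (4.65%). In leaves 22 were higher in control (5.25%) and 24 under salt (4.27%). In these comparisons 0 were lower in any, with medians of 0.45, 0.22, 0.34 and 0.36. Within the organ, 16, 12, 1 and 0 were higher (7.11%, 3.93%, 8.14% and 7.65% of all features). There, 1 was lower in control leaves (7.65%), and the medians were 0.37, 0.22, -0.01 and 0.02. *psbA*, a core protein of photosystem II, differed by -0.16 in control and -0.09 in salt-stressed roots and did not pass. At 2-fold, 4 were up-regulated in control roots (2.89% of all features), among them *psaB* of photosystem I (1.19 ± 0.09) and *ndhH* of the NDH complex (1.24 ± 0.13). Of 5 nucleus-encoded genes of plastid gene expression and protein turnover (*DCL*, *HSP21*, *clpP2*, *ftsH6* and *sig1*), 0 passed in roots. With 7.47% of all features higher in control and 4.65% under salt, a count of 0 among 5 does not set them apart. *HSP21* and *sig1* had group means of 1.09 to 1.29 and 1.23 to 1.34 in roots, below the array medians. There *ftsH6*, a plastid protease, was uneven in salt-stressed WT, at 6.02, 6.42 and 2.93, against 3.28, 3.58 and 3.57 in *res*. The value of 2.93 was on replicate 3, the array that stood apart. WT control roots were at 3.96, 3.7 and 3.99, so replicates 1 and 2 lay further from the control level than replicate 3. In leaves *ftsH6* was higher in *res* in control (1.63 ± 0.15) and under salt (2.57 ± 0.15), and *clpP2* was lower in salt-stressed leaves (-0.61 ± 0.11). *GLK2*, which encodes a transcription factor of chloroplast development and is 1 of the 3 leaf markers, was lower in *res* in control leaves (-2.18 ± 0.14) and higher in salt-stressed leaves (2.35 ± 0.14), and its part in the values of the plastid genes was not tested.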

How the data were processed

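The authors processed the scans with RMA (background correction, quantile normalization over arrays, log2, 1 value per probe set) and named Partek for annotation. Which versions they ran is not given in the sources used here. Deposited log2 intensities were used as given and carry no detection calls. The number of arrays limits the precision, and the limits given above for bright probe sets, shared symbols and scaling also apply. The platform's annotation gave a single symbol to 23194 probe sets, more than 1 to 170 and none to 44431. Probe sets with the same single symbol were averaged (65927 features), and each probe set was also tested as a feature where a symbol had several. The 12 arrays of an organ (24 for organ contrasts) were fitted with limma 3.58.1 in R 4.3.3, with Benjamini-Hochberg adjustment over all features, and DEGs also had a 2-fold change. Quantile normalization within each organ was the main alternative, and the others are named at the end. The average of *rps16* mixes nuclear-placed and plastid probe sets. The members and lists were chosen with earlier results of these data known.

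Every member was to be named or counted, with array values for up to 3 members per class and comparison (called ones, or the smallest adjusted p). The arrays given for probe sets of *rps16*, *clpP*, *rps7*, *ycf1*, *rpl23* and *rpoB* and for *matK* and the nuclear-placed genes, and *GLK2*, *psaB* and *ndhH*, were chosen after their values were seen. RefSeq (assembly SLM_r2.1) served for names and gene order only. A list of mitochondrion-encoded genes had 0 members on the array. Data were read with Python 3.11.15 and pandas 2.3.3.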

Additional observations from a re-analysis of the deposited data

Results flagged for a closer look

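The difference between *res* and WT in *rpl38*, which lies among genes of chromosome 5 and not in the plastid block, differed between organs. Leaf minus root, it was -1.07 in control (limma adjusted p = 0.00334) and -1.65 in salt (4.83e-05), since *rpl38* was lower in *res* in leaves and differed by 0.15 and 0.25 in roots. The control value was -0.81 without replicate 1 of the WT control leaves and -0.96 without replicate 1 of the *res* control roots, both under 2-fold. At 2-fold, 4.86% of all features were lower in this contrast in control and 5.25% in salt. The calls of *rpl38* therefore do not set the members apart from other features.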

How the results depend on the processing

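Counts of members past an adjusted p of 0.05 and 2-fold are given in the order *res* versus WT in control roots, salt-stressed roots, control leaves and salt-stressed leaves. They were 1, 0, 1 and 2, and with quantile normalization within the organ 0 in control and 1 in salt-stressed leaves. Without the fold limit they were 22, 15, 25 and 25. For salt versus control (0 in WT and *res* roots and leaves) they were then 3, 1, 3 and 4, for the interaction in leaves 1, for leaf versus root 25 in WT and 27 in *res* (13 and 13 with the limit), and for the organ difference in the effect of *res* 6 in control and 5 in salt (1 and 1). With each probe set a feature (chosen after the data were seen) they were 2 of 39 in control roots, 3 in salt-stressed roots, 4 in salt-stressed leaves and 2 for the organ difference in salt. The cause was not tested. For leaf versus root without the limit, and for most of the probe set counts, no share of all features is given. Those counts are therefore not read as results about the members.

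Leaving out 1 array gave 0 to 3 in control roots (0 without WT replicate 2, 3 without WT replicate 3, 2 without *res* replicate 1), 0 in salt-stressed roots, 1 to 2 in control leaves (2 without WT replicate 2), 2 in salt-stressed leaves, 0 in all salt and interaction comparisons, 12 to 13 for leaf versus root in either genotype, 0 to 1 for the organ difference in control and 1 in salt. *rpl36*, at 1.01 in WT, accounts for the lost leaf calls: it was 0.99, 1.00 and 0.96 without WT root replicates 1 and 2 or WT leaf replicate 1, and 0.98 in *res* without leaf replicate 1. The organ difference in control counted *rpl38* as deposited (-1.07) and *rps14* within the organ (-1.16). With the brightest probe set per gene, the leaf versus root difference of *clpP* in WT was -0.40.

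Replicate numbers did not pair the arrays: deviations of same-numbered arrays correlated by -0.1 to 0.1 in leaves and -0.08 to 0.06 in roots. With replicate number as a block the counts were 1, 0, 1 and 2 for *res* versus WT and did not change for the other comparisons. A fit of only the groups compared was run for *res* versus WT and for salt versus control, and it kept all 4 calls of members at 2-fold. It was not run for interactions, which use all groups of an organ. The variance trend, the test without moderation, all 24 arrays in 1 fit and the filter on dim features moved no count by over 1.5 times.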
